A study of Mus musculus with 6 samples.

Results

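The transcripts described here are those of 36 genes of primary cilium transport and the ciliary transition zone, measured by bulk RNA sequencing of the mouse paraventricular thalamus, a midline thalamic nucleus. The members were chosen by name, as subunits and partners of the intraflagellar transport complexes, the BBSome and the transition zone, and each of the 36 was found once among the 21959 genes of the deposited table. The CCI group had 3 libraries (replicates 1 to 3) from mice with chronic constriction injury, a model of neuropathic pain made by loosely tying a peripheral nerve. The control group (WT) had 3 libraries (replicates 4 to 6) from mice with no treatment. Both groups carried the wild-type genotype, the tissue is labelled brain, and the design text names the paraventricular thalamus and 30 mice in each group. The sources used here do not say whether mice were pooled or how they were divided among libraries, nor the age of the mice or the time after injury. The p-values thus reflect how far the 6 libraries vary, and part of that variation may be technical.

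The primary cilium is a single antenna-like projection that most neurons and astrocytes carry. Intraflagellar transport moves cargo along it: the IFT-B complex works with kinesin-2 on the way to the tip, and the IFT-A complex works with the dynein-2 motor on the way back. The BBSome carries membrane receptors out of the cilium, and the transition zone at its base acts as a gate for what enters and leaves. Neuronal cilia concentrate receptors for neuropeptides and monoamines, and loss of many of these genes in people and mice causes ciliopathies such as Bardet-Biedl, Joubert and Meckel syndromes.

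Library totals were 7989139 to 10529886 counts in CCI and 12337448 to 15438268 counts in WT. The 50 most abundant genes of a library held 12.6% to 13.6% of its counts in CCI and 14.2%, 20.7% and 14.5% in WT replicates 4, 5 and 6, so that WT replicate 5 stood apart. The counts of markers called, in what follows, stand beside 27% of all genes tested higher in CCI and 25.3% lower. Of 8 thalamus markers, 7 were lower in CCI and none was higher. Their summed level was 2244, 2243 and 1453 CPM in CCI replicates 1 to 3 and 4934 to 7764 CPM in WT. CPM is the read count scaled by edgeR to the TMM-adjusted library total. In CPM, CCI replicate 3 was also the lowest CCI library for 24 of the 36 members. Of the 7 hippocampus and cortex markers tested, 6 were higher in CCI and none was lower. Their sum was 161 to 194 CPM in CCI and 58.4 to 75.7 CPM in WT. Among them Neurod6 had 57.6 CPM in CCI replicate 3, and 4.21 and 3.47 CPM in CCI replicates 1 and 2. Among 8 oligodendrocyte markers 6 were higher in CCI and none was lower, at a summed 18490 to 24364 CPM in CCI and 7154 to 13908 CPM in WT. Of 8 neuron markers 1 was higher in CCI (Map2) and 2 were lower (Snap25 and Elavl4), or 37.5% called beside 52.3% of all genes. Their sum was 3521 to 3895 CPM in CCI and 7341 to 9706 CPM in WT. The difference between these sums lay mostly in Snap25, with a mean of 1472.3 CPM in CCI and 5553.5 CPM in WT. The neuron markers Rbfox3, Syt1, Tubb3, Eno2 and Stmn2 were not called. Among 8 astrocyte markers 2 were higher and 2 lower, or 50% called beside the same 52.3%. The astrocyte sum was 2519 to 3343 CPM in CCI and 3425 to 4667 CPM in WT. No marker of these 5 lists was at 0 in every library. The part of these differences in the values of the ciliary genes was not tested, and in bulk tissue fewer cells of a type and less RNA per cell cannot be told apart.

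Ciliary transport and transition zone genes differed between CCI and WT in both directions, and about as often as other genes did. All 36 members passed the filter on low counts, and 21 of them passed an adjusted p of 0.05 in edgeR's quasi-likelihood test with Benjamini-Hochberg adjustment over all 14259 genes tested, called the edgeR adjusted p here. Of the members, 10 were higher in CCI and 11 were lower, a share of 58.3% called, beside 52.3% of all genes tested (27% higher and 25.3% lower). The median log2 fold change of the members, CCI over WT, was -0.04, and that of all genes tested was 0.06. In CPM, the 3 CCI libraries lay entirely above the 3 WT libraries for 13 members and entirely below them for 11, which is 24 of 36 members beside 63% of all genes tested (33.6% above and 29.4% below). The counts per complex in what follows rest on 2 to 11 genes each and stand beside the same 27% of all genes higher and 25.3% lower. Without WT replicate 5 there were 12 members higher and 12 lower, beside 31.5% and 30.5% of the 14478 genes tested then. Without CCI replicate 1 they were 9 higher and 7 lower, beside 20% and 18.2% of all genes, and without CCI replicate 3 they were 10 higher and 7 lower, beside 20.8% and 19.2%.

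Calls that also held in all 17 alternative settings, with the same direction, were those of 9 members. Cep290, Dync2h1, Ift140, Nphp4, Arl13b and Ift74 were higher in CCI, and Ift57, Bbs4 and Ift27 were lower. The other 12 calls, 4 higher and 8 lower, were each lost in at least 1 setting. Scaling moved the split between directions. With library totals alone, without TMM factors (1.21 to 1.25 in CCI and 0.69 to 0.90 in WT), the median of all genes moved up by 0.59 on the log2 scale, and the split of the members became 19 higher and 3 lower, beside 45.4% and 9.72% of all genes. With limma on log2(FPKM + 1) there were 19 members higher and 3 lower, beside 47.6% and 9.64% of all genes, and on log2(FPKM + 0.1) there were 18 and 3, beside 46.5% and 9.43%. Fold changes are given on the TMM scale unless another scale is named.

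**Figure D1:**
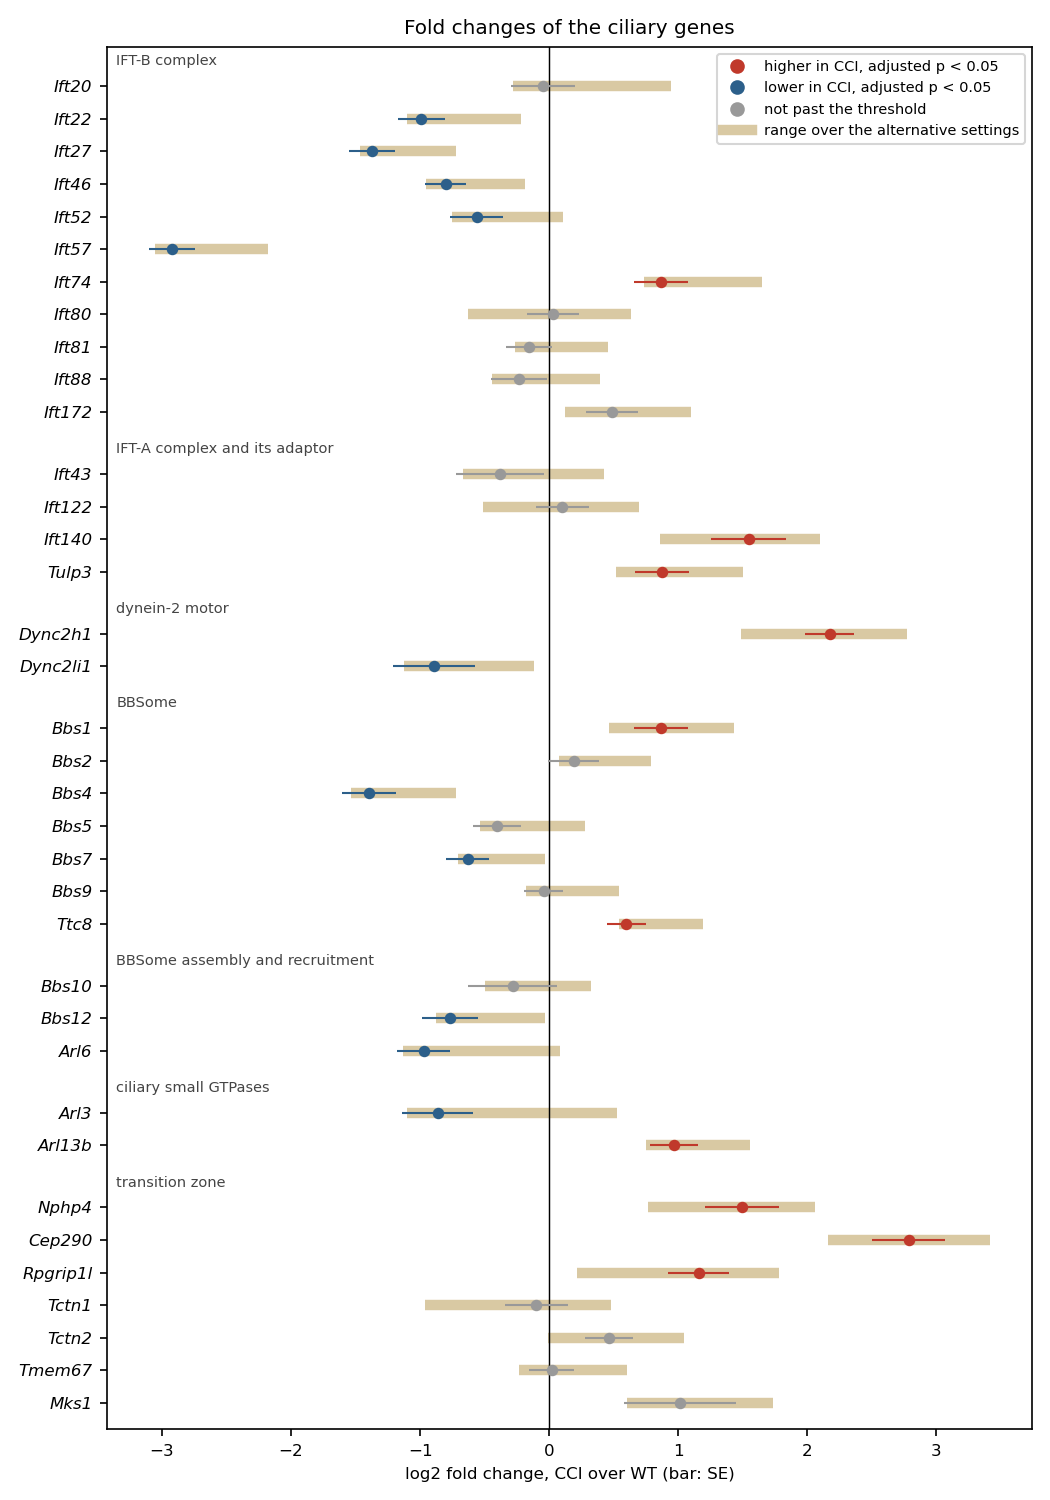
Log2 fold changes of the 36 ciliary genes, CCI over WT, on the TMM scale (horizontal axis), grouped by complex, with points for the edgeR fit, thin bars for its standard error and broad pale bars for the range over the 17 alternative settings. Cep290 at 2.79 and Ift57 at -2.92 lie at the 2 ends, and the pale bars of many middle genes cross 0.

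Promoters of members of both directions held the same sequence pattern. Ciliary genes are known to be controlled by RFX transcription factors, which bind the X-box, an imperfect inverted repeat. RefSeq promoters (GRCm38.p6, 250 bases before to 50 after the start site) were matched by symbol for 31 of the 36 members, and 6 patterns of the X-box were searched on both strands. The pattern shown, GTNNCC and GNNAC with 3 free bases between them, was chosen after the counts of all 6 had been seen. It occurred in 10 of 31 members (32.3%) and in 5.26% of 27025 genes with a promoter, and the 10 were 3 members higher in CCI, 4 lower and 3 with no call. The left site GTTGCC alone occurred in 14 of 31 members and 14.1% of all genes, and GTTNCC in 26 of 31 and 48.8%. Of the 31 members with a promoter, 10 were higher in CCI, 10 were lower and 11 had no call. The stricter patterns, all contained in the one shown, each occurred in 3 members, none higher in CCI: Bbs7 (lower), Tctn1 and Mks1 (no call). They are GTTNCC, 3 free bases and GNAAC, found in 0.936% of all genes, GTTNCC, 2 free bases and GGNAAC, found in 0.529%, and GTTGCC, 2 free bases and GGNAAC, found in 0.355%. The matches that end before the start site are shown to set genes of opposite direction side by side, with the 14 matching bases in capitals and up to 25 bases on either side, read 5′ to 3′ on the strand of the gene:
Ift57: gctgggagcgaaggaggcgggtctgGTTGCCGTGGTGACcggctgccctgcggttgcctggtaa
Ift22: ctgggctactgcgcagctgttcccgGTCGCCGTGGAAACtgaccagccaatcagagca
Bbs7: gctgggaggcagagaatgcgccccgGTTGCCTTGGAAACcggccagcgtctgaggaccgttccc
Nphp4: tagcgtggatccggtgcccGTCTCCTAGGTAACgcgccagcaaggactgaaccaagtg
Tctn2: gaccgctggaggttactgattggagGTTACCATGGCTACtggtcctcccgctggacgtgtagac
Mks1: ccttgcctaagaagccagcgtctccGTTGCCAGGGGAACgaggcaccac
These windows lie at chr16:49699182-49699245 (plus strand, Ift57), chr5:136908092-136908149 (plus, Ift22), chr3:36613472-36613535 (minus, Bbs7), chr4:152477892-152477949 (plus, Nphp4), chr5:124598662-124598725 (plus, Tctn2) and chr11:87853166-87853214 (plus, Mks1) on GRCm38.p6, a build other than that of the deposited table. Ift57 and Ift22 each hold a second match that is not shown, and the matches of Bbs1, Bbs4, Dync2h1 and Tctn1 lie after the start site. Of the genes shown, Ift57, Ift22 and Bbs7 were lower in CCI, Nphp4 was higher, and Tctn2 and Mks1 were not called. A match is a description of the letters and not of binding.

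The IFT-B complex had 1 member higher in CCI, 5 lower and 5 with no call, among 11. Ift57, a peripheral subunit of the complex (chromosome 16, 49519596 to 49585489, plus strand, on GRCm39 as in the table), had the largest decrease of all 36 members. It had 16.4, 15.2 and 19.7 CPM in the CCI libraries, against 113, 142 and 135 CPM in WT. The highest CCI library was under the lowest WT library. The log2 fold change was -2.92 ± 0.18 (SE), or 7.57-fold lower in CCI (edgeR adjusted p = 0.000153), and it ranged from -3.05 to -2.18 over the alternatives.

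Ift27, a Rab-like small GTPase that links IFT-B to export of the BBSome (chromosome 15, 78043663 to 78058307, minus strand), had 31.3, 28.6 and 24.8 CPM in CCI and 68.4, 86.4 and 64.3 CPM in WT. The groups did not overlap, and the log2 fold change was -1.37 ± 0.18 (edgeR adjusted p = 0.000528). Ift22, another Rab-like subunit, had 59.1, 65.4 and 46.4 CPM in CCI and 103, 129 and 108 CPM in WT. The log2 fold change of -0.99 ± 0.18 (edgeR adjusted p = 0.00244) became -0.38 with library totals alone and was then not called (edgeR adjusted p = 0.0816). Ift46, which is needed in the cilium for transport of dynein arms in green algae, was lower by -0.80 ± 0.16 on the log2 scale, and Ift52, a core scaffold subunit, by -0.56 ± 0.20 (edgeR adjusted p = 0.00315 and 0.0437). With library totals alone, Ift46 had -0.21 and was not called (edgeR adjusted p = 0.315). Ift52 overlapped between the groups in CPM, its call was lost when any 1 of CCI replicates 1 and 3 and WT replicates 4 and 6 was left out (-0.54 to -0.46), and its log2 fold change was 0.00029 with library totals alone.

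Ift74, which forms with Ift81 the module that binds tubulin as cargo, went the other way; it falls outside the rule for naming genes, as do Ift81, Ift172 and Mks1, and these 4 are given in full after their values were seen. Ift74 lies on chromosome 4 at 94502728 to 94581466, plus strand. It had 91.2, 92.6 and 64.3 CPM in CCI and 39.0, 55.8 and 41.2 CPM in WT, so that every CCI library was above every WT library. The log2 fold change was 0.87 ± 0.21 (edgeR adjusted p = 0.00826). Ift81, its binding partner, had 45.4, 50.7 and 39.1 CPM in CCI and 45.5, 60.3 and 44.9 CPM in WT, and its log2 fold change was -0.16 ± 0.18 (edgeR adjusted p = 0.492).

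Ift80, a subunit whose loss causes a skeletal ciliopathy, had 27.4, 25 and 20.4 CPM in CCI and 25.6, 26.6 and 19.1 CPM in WT. These ranges lay on top of each other, with a log2 fold change of 0.03 ± 0.20 (edgeR adjusted p = 0.906); it was 0.63 and called with library totals alone, and -0.63 and called with an offset for length and mean expression. Ift20, which also acts at the Golgi, and Ift88, a core subunit, had log2 fold changes of -0.05 ± 0.25 and -0.23 ± 0.21. Ift20 was called higher with library totals alone (0.60, edgeR adjusted p = 0.0265) and with limma on both FPKM scales. It was also called higher with the offsets on length and GC content (0.68) and on length and mean expression (0.95). The offset on length alone did not call it (0.33, edgeR adjusted p = 0.204). Without WT replicate 5 the log2 fold change of Ift88 was -0.45 (edgeR adjusted p = 0.0132). Ift172, a large subunit that also acts in turnaround at the tip, had 23.3, 22.4 and 22.1 CPM in CCI and 15.3, 20.1 and 13.1 CPM in WT, without overlap. It missed the threshold with a log2 fold change of 0.49 ± 0.20 (edgeR adjusted p = 0.0685), and it passed at 0.65 without WT replicate 5 (edgeR adjusted p = 0.00457).

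**Figure D2:**
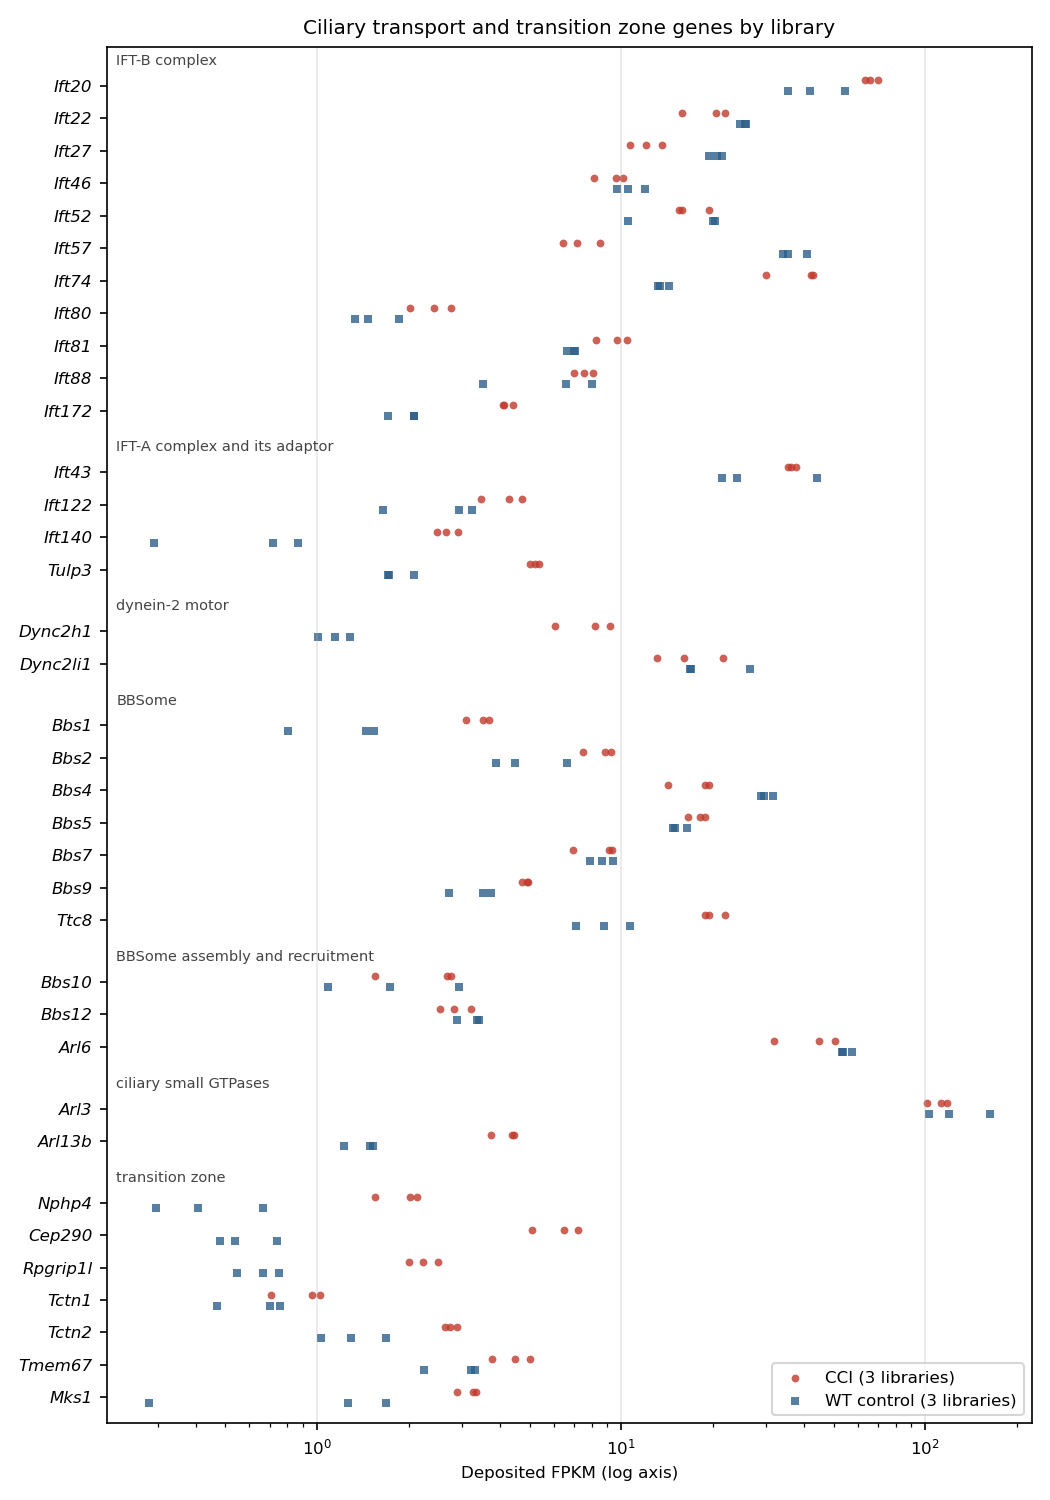
Deposited FPKM (log axis) of the 36 ciliary genes in each of the 3 CCI and 3 WT libraries, grouped by complex. Because FPKM is scaled to library totals, genes with a TMM fold change near 0, such as Ift20, sit higher in CCI here, whereas Ift57 sits at 6.44 to 8.49 FPKM in CCI and 34.0 to 40.9 FPKM in WT.

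IFT-A subunits and their adaptor had 2 members higher in CCI and 2 with no call. Ift140, a core subunit (chromosome 17, 25235059 to 25318469, plus strand), had 19.4, 18.3 and 16.8 CPM in CCI and 8.03, 3.55 and 6.88 CPM in WT. Its lowest CCI library was above its highest WT library, and the log2 fold change was 1.55 ± 0.29 (edgeR adjusted p = 0.00271). Tulp3, the adaptor through which IFT-A brings receptors into the cilium, had 39.1, 38.7 and 40.6 CPM in CCI and 17.8, 28.4 and 18.6 CPM in WT. Its log2 fold change was 0.88 ± 0.21 (edgeR adjusted p = 0.00799), and 0.52 with an offset for gene length, where the call was lost (edgeR adjusted p = 0.058).

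Ift43 and Ift122 were not called. Ift43, a small peripheral subunit, had 49.7, 48.2 and 48.3 CPM in CCI and 39.3, 106 and 45.9 CPM in WT, where replicate 5 alone was above the CCI libraries. The fitted log2 fold change was -0.38 ± 0.34 (edgeR adjusted p = 0.366) and 0.17 without that library. Ift122, a core subunit, had 38.9, 36.5 and 29.0 CPM in CCI and 33.6, 24.8 and 38.5 CPM in WT, with a log2 fold change of 0.10 ± 0.21 (edgeR adjusted p = 0.697).

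Both dynein-2 motor subunits among the members were called, in opposite directions. Dync2h1, the heavy chain that powers return transport (chromosome 9, 6928503 to 7184446, minus strand), had 121, 111 and 80.2 CPM in CCI and 23.3, 24.0 and 21.6 CPM in WT. All CCI libraries were over 3 times the highest WT library, and the log2 fold change was 2.18 ± 0.19, or 4.52-fold higher (edgeR adjusted p = 0.000185). Dync2li1, the light intermediate chain that stabilises the heavy chain, had 24.1, 33.3 and 19.9 CPM in CCI and 35.1, 72.1 and 36.5 CPM in WT. Its log2 fold change was -0.89 ± 0.31 (edgeR adjusted p = 0.0407), and the call was lost without CCI replicate 1 (-0.85, edgeR adjusted p = 0.112) or CCI replicate 3 (-0.74, edgeR adjusted p = 0.142). The call of Dync2li1 was also lost with library totals alone (-0.25, edgeR adjusted p = 0.444) and with limma on both FPKM scales. It was lost too with the offsets on length (-0.52), on length and GC content (-0.11) and on length and mean expression (-0.27).

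Of the 7 BBSome subunits among the members, 2 were higher in CCI, 2 were lower and 3 were not called. Bbs4, a late-joining subunit with tetratricopeptide repeats (chromosome 9, 59229273 to 59260791, minus strand), had 93.8, 94.1 and 70.1 CPM in CCI and 194, 279 and 206 CPM in WT. No CCI library came near the lowest WT library, and the log2 fold change was -1.39 ± 0.21 (edgeR adjusted p = 0.000943). Bbs7, part of the BBSome core, was lower by -0.63 ± 0.17 on the log2 scale (edgeR adjusted p = 0.0135), and by -0.03 with library totals alone.

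Bbs1, the subunit that binds Arl6 and cargo, had 21.5, 23.3 and 19.2 CPM in CCI and 13.1, 8.98 and 12.9 CPM in WT. Its groups did not overlap, at a log2 fold change of 0.87 ± 0.21 (edgeR adjusted p = 0.00848). With an offset for length and mean expression it was 0.46 and not called (edgeR adjusted p = 0.102). Ttc8, also called Bbs8, had 66.6, 59.1 and 59.6 CPM in CCI and 44.9, 39.1 and 38.3 CPM in WT. Every CCI library was again the higher, with a log2 fold change of 0.60 ± 0.15 (edgeR adjusted p = 0.00948), and 0.54 without CCI replicate 1, where the call was lost (edgeR adjusted p = 0.0561). Bbs9, a core subunit, had the lowest coefficient of variation of all members in both groups (1.04% in CCI and 2.09% in WT), at 24.7, 24.4 and 24.9 CPM in CCI and 25.9, 24.8 and 25.4 CPM in WT. Its log2 fold change was -0.04 ± 0.15 (edgeR adjusted p = 0.826), and 0.55 and called with library totals alone. Bbs2 and Bbs5 had log2 fold changes of 0.19 ± 0.19 and -0.40 ± 0.18.

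Genes that assemble the BBSome or bring it to membranes had 2 members lower in CCI and 1 with no call. Arl6, also called Bbs3, the small GTPase that recruits the BBSome to membranes, had 75.3, 87.5 and 54.3 CPM in CCI and 133, 162 and 130 CPM in WT. The groups were apart, with a log2 fold change of -0.97 ± 0.21 (edgeR adjusted p = 0.0047), and 0.09 with an offset for length and mean expression. Bbs12, a chaperonin-like assembly factor, had 5.51, 6.48 and 5.01 CPM in CCI and 9.10, 10.3 and 9.58 CPM in WT. Its log2 fold change was -0.77 ± 0.22 (edgeR adjusted p = 0.0181), and the call was lost without CCI replicate 1 (-0.75, edgeR adjusted p = 0.0707) or CCI replicate 3 (-0.69, edgeR adjusted p = 0.0574). The call of Bbs12 was also lost with library totals alone (-0.17, edgeR adjusted p = 0.549). It was lost with the offsets on length (-0.44) and on length and GC content (-0.03), and kept with that on length and mean expression (-0.82). Bbs10, a second chaperonin-like factor, had 6.51, 6.94 and 3.85 CPM in CCI and 9.90, 4.85 and 6.13 CPM in WT. These overlapped, and the log2 fold change was -0.28 ± 0.35 (edgeR adjusted p = 0.514).

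The ciliary small GTPases Arl13b and Arl3 act in sequence, Arl13b as the activator of Arl3, which then releases lipid-modified cargo inside the cilium. Arl13b (chromosome 16, 62614048 to 62667403, minus strand) had 18.1, 15.7 and 18 CPM in CCI and 8.48, 9.10 and 8.98 CPM in WT. Its groups were well apart, with a log2 fold change of 0.97 ± 0.19 (edgeR adjusted p = 0.00294). Arl3 had 235, 232 and 205 CPM in CCI and 285, 593 and 344 CPM in WT. The WT value of replicate 5 was the highest, and the log2 fold change was -0.86 ± 0.28 (edgeR adjusted p = 0.028). The call was lost when any 1 of the 3 CCI libraries was left out (-0.90 to -0.80, edgeR adjusted p = 0.0725 to 0.0965). With library totals alone Arl3 had -0.22 and was not called (edgeR adjusted p = 0.385).

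At the transition zone 3 of 7 genes (42.9%) were higher in CCI, beside 27% of all genes tested. None was lower, beside 25.3%, and 4 were not called. The share called in either direction was thus also 42.9%, beside 52.3% of all genes tested. Cep290, which lies between the microtubules and the membrane of the gate (chromosome 10, 100323420 to 100410702, plus strand), had 66.9, 62.2 and 47.9 CPM in CCI and 6.96, 12.5 and 6.43 CPM in WT. The lowest CCI library was more than 3 times the highest WT library, and the log2 fold change of 2.79 ± 0.28, or 6.9-fold higher, was the largest increase of the 36 members (edgeR adjusted p = 0.000236). Nphp4, of the nephronophthisis module (chromosome 4, 152561163 to 152647640, plus strand), had 9.82, 7.76 and 10.5 CPM in CCI and 4.46, 2.60 and 2.84 CPM in WT. It did not overlap, at a log2 fold change of 1.49 ± 0.29 (edgeR adjusted p = 0.00298). Rpgrip1l, a scaffold of the gate, had 29.4, 27.2 and 23.9 CPM in CCI and 10.9, 16.1 and 9.28 CPM in WT. The log2 fold change of Rpgrip1l was 1.16 ± 0.23 (edgeR adjusted p = 0.0038). It was 0.54 with an offset for gene length, where the call was lost (edgeR adjusted p = 0.0646). With an offset for length and mean expression it was 0.22 and not called (edgeR adjusted p = 0.483).

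The transition zone members Tmem67, Mks1, Tctn1 and Tctn2, of the Meckel syndrome module, were not called. Cc2d2a, of the same module but outside the 36 members, was higher in CCI, as given below. Tmem67, a membrane protein of the gate, had 27.9, 32.2 and 23.7 CPM in CCI and 28.5, 25.4 and 28.7 CPM in WT, with a log2 fold change of 0.02 ± 0.18 (edgeR adjusted p = 0.935). Mks1 had 10.8, 10.9 and 9.48 CPM in CCI and 7.58, 1.65 and 5.91 CPM in WT, where replicate 5 had 14 counts. Its log2 fold change was 1.01 ± 0.43 (edgeR adjusted p = 0.0778); without WT replicate 5 it was 0.60 and passed (edgeR adjusted p = 0.0317), and without WT replicate 4 it was 1.36 and passed (edgeR adjusted p = 0.0434). Tctn1 and Tctn2, of the tectonic family, had log2 fold changes of -0.10 ± 0.24 and 0.46 ± 0.18 (edgeR adjusted p = 0.752 and 0.0612).

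Subunits that work together were compared within each library as ratios of deposited FPKM. These are free of library scaling, but not of trends of the fold change with gene length or expression. The partners can differ in length, as do Dync2h1 (16348 bp) and Dync2li1 (1869 bp). The 8 pairs were chosen after the values had been seen. The ratio of Ift57 to Cluap1, its binding partner in IFT-B, was 0.876, 0.875 and 1.32 in CCI and 8.45, 8.18 and 10.2 in WT. The ratio of Dync2h1 to Dync2li1 was 0.574, 0.379 and 0.461 in CCI and 0.0759, 0.0380 and 0.0677 in WT. That of Ift74 to Ift81 was 4.42, 4.02 and 3.61 in CCI and 1.88, 2.04 and 2.02 in WT. In these pairs the groups did not overlap.

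The other pairs are given by their mean ratios. Ift27 over Hspb11, its partner in the complex, was 0.742 ± 0.030 in CCI and 1.41 ± 0.21 in WT (SD, n = 3 each). Arl13b over Arl3 was 0.0380 ± 0.0050 in CCI and 0.0116 ± 0.0037 in WT. Bbs7 over Bbs2 was 1.01 ± 0.24 in CCI and 1.80 ± 0.34 in WT, and Kif3a over Kifap3, of kinesin-2, was 1.13 ± 0.12 in CCI and 0.462 ± 0.075 in WT. Ift52 over Ift88 overlapped between the groups, at 2.26 ± 0.45 in CCI and 2.86 ± 0.31 in WT. As the pairs were chosen with their values known, these ratios are a description, with no test.

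**Figure D3:**
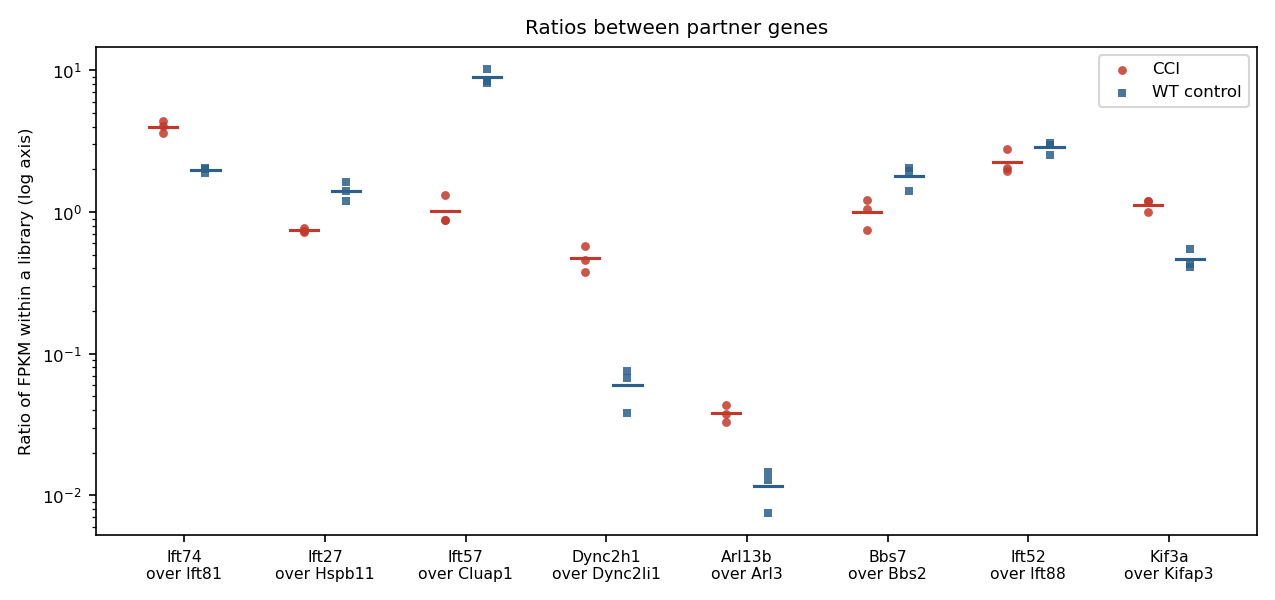
Ratio of deposited FPKM between partner genes within each library (log axis), with points for the 3 CCI and 3 WT libraries and lines for their means. Ift57 over Cluap1 has means of 1.02 in CCI and 8.94 in WT, and Ift52 over Ift88 overlaps between the groups.

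Levels between genes were compared on deposited FPKM, which is per length. Arl3 had the highest median of the 36 members in both groups, at 113 FPKM in CCI (101 to 118) and 120 FPKM in WT (103 to 163). The lowest median in CCI was that of Tctn1 at 0.962 FPKM (0.705 to 1.03), and the lowest in WT was that of Nphp4 at 0.407 FPKM (0.295 to 0.664). Cep290 stood 20th of 36 in CCI and 35th in WT, Dync2h1 17th in CCI and 31st in WT, and Ift57 19th in CCI and 4th in WT. In WT the neighbours of Cep290 in this order, Rpgrip1l and Nphp4, overlapped with it.

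The direction of the members went with the length of the gene. The deposited length had a median of 8004 bp in the 10 members higher in CCI, 2862 bp in the 11 lower and 5840 bp in the 15 not called. Across the 36 members the log2 fold change correlated with log2 length at Pearson's r = 0.57 and Spearman's rho = 0.60, and across all 14259 genes tested at r = 0.25 and rho = 0.28. These points are genes of the same 6 libraries and are not independent replicates. Of all genes of 8000 to 16000 bp, 47.6% were higher and 13.7% were lower in CCI, and of those of 2000 to 4000 bp, 15.5% were higher and 32.7% were lower. Members of 8000 to 16000 bp were 8, of which 4 were higher and none was lower, and those of 2000 to 4000 bp were 12, of which 2 were higher and 7 were lower.

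With a smooth offset on gene length fitted in each library, the members were 9 higher and 7 lower, beside 24.8% and 23.8% of all genes, and r over the members was 0.33. An offset on length and GC content gave 12 higher and 7 lower of 35 members, beside 23.9% and 22.8%, and one on length and mean expression gave 8 higher and 7 lower of 36, beside 22.1% and 15%. In the fit with the length offset the calls of Ift52, Tulp3, Dync2li1, Bbs12, Arl3 and Rpgrip1l were lost, and Mks1 was called. Beyond these offsets, the part of length in the calls was not tested.

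**Figure D4:**
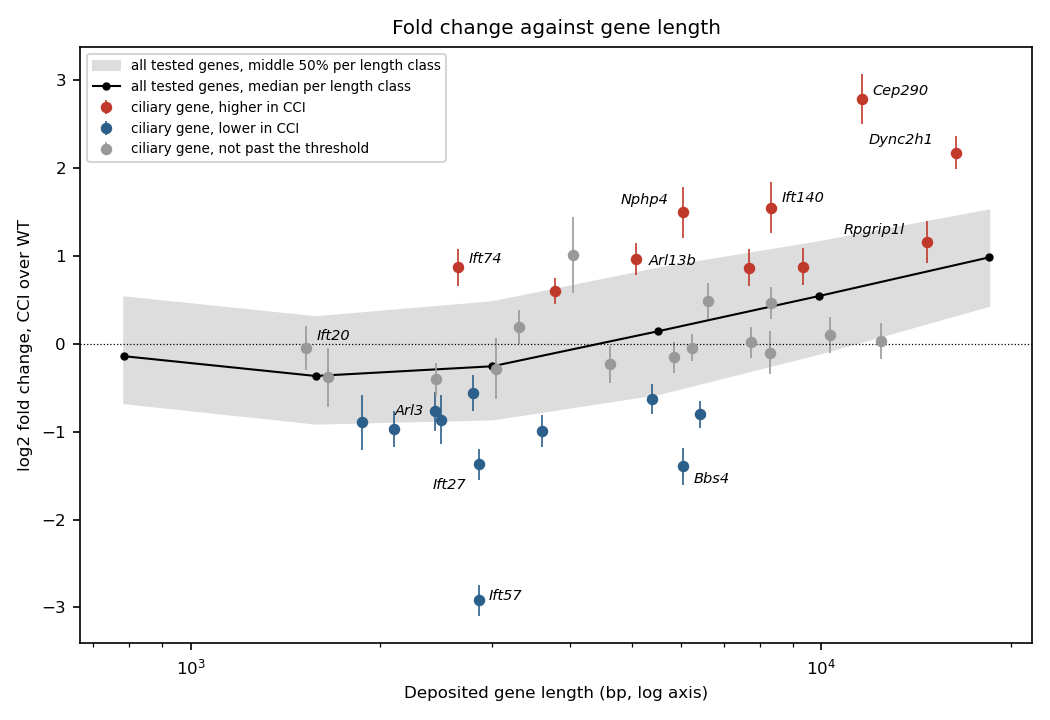
Log2 fold change, CCI over WT, against deposited gene length (log axis), with points and standard errors for the 36 ciliary genes, a black line for the median of all genes tested per length class and a grey band for their middle 50%. Ciliary genes higher in CCI have a median length of 8004 bp and those lower 2862 bp, and the median of all genes rises with length.

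The strand setting of the counting is not stated, and 9 members overlap a gene on the opposite strand in the table, so that reads of the pair may not be told apart. They are Ift74, Ift140, Bbs4, Bbs12, Arl13b, Nphp4, Cep290, Tctn1 and Tmem67. Tmem204, which overlaps 31.0% of the span of Ift140, had a log2 fold change of -1.46 where Ift140 had 1.55, and 4930430F08Rik, which overlaps 2.95% of the span of Cep290, had 0.06 where Cep290 had 2.79. Lrrc19 overlaps Ift74 and Stx19 overlaps Arl13b, and both were higher in CCI, with log2 fold changes of 1.70 each (edgeR adjusted p = 0.00579 for Lrrc19 and 0.0236 for Stx19). Adpgk, which overlaps 6.55% of Bbs4, was lower, with a log2 fold change of -1.35 (edgeR adjusted p = 0.00591).

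Other genes of the cilium moved in both directions too. Of 64 genes in 4 further lists, 62 were tested, and 13 were higher and 12 lower in CCI, a share of 40.3% called, under the 52.3% of all genes, with a median log2 fold change of -0.10. Of 20 other transport genes tested, 3 were higher and 6 lower; Dync2i1, a dynein-2 intermediate chain, had a log2 fold change of 1.62 ± 0.15, the chaperonin-like BBSome assembly factor Mkks -1.55 ± 0.17, and the IFT-B subunit Ttc30b -1.97 ± 0.22 (edgeR adjusted p = 0.000209, 0.000268 and 0.00028). Reads of Ttc30b may be shared with its near-identical copies Ttc30a1 and Ttc30a2, so its value is uncertain. Of 22 other transition zone and ciliary base genes, 6 were higher and 5 lower: Cc2d2a, of the Meckel syndrome module, had 2.06 ± 0.27, the B9 domain gene B9d2 -1.65 ± 0.22, and Cep164, of the distal appendages, 1.64 ± 0.22 (edgeR adjusted p = 0.000573, 0.000604 and 0.000644).

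Carriers of lipid-modified cargo, which Arl3 unloads, had 1 of 5 genes lower and none higher. Pde6d, the carrier of prenylated proteins, had a log2 fold change of -0.58 ± 0.17 (edgeR adjusted p = 0.0209), which was 0.04 with library totals alone and lost its call when any 1 of the CCI libraries was left out (-0.62 to -0.53). Unc119 and Unc119b, the carriers of myristoylated proteins, had -0.17 ± 0.18 and -0.06 ± 0.26. Of 15 ciliary receptor and Hedgehog genes tested, 4 were higher and none was lower, and the 26.7% higher is near the 27% of all genes tested. Pkd1, a large ciliary membrane protein, had 64.3, 54.4 and 69.0 CPM in CCI and 13.7, 4.37 and 11.5 CPM in WT (log2 fold change 2.65 ± 0.35, edgeR adjusted p = 0.000594). Its channel partner Pkd2 had a log2 fold change of 0.54 ± 0.16 and the Hedgehog repressor Sufu 0.89 ± 0.23 (edgeR adjusted p = 0.0227 and 0.011). The call of Pkd2 was lost when any 1 library other than WT replicate 5 was left out (0.42 to 0.55), and that of Sufu without CCI replicate 1 (0.83, edgeR adjusted p = 0.0538).

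**Figure D5:**
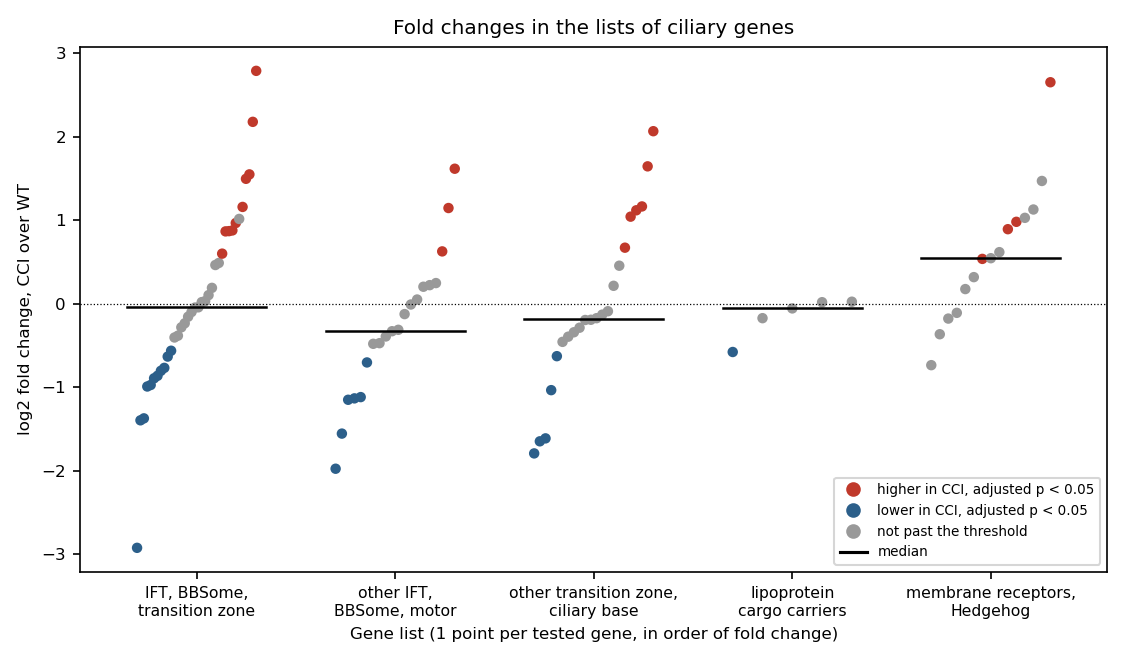
Log2 fold change, CCI over WT, of each tested gene in the 36 members and in 4 further lists of ciliary genes, in order of fold change, with a line for the median of each list. The medians are -0.04 for the members and -0.10 over the 62 tested genes of the further lists together, and single genes range from -2.92 for Ift57 to 2.79 for Cep290.

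Ependymal cells carry motile cilia that use the same transport genes, and their markers were measured alongside. Of 14 markers of motile cilia and ependyma, 6 (42.9%) were higher in CCI, beside 27% of all genes tested. None was lower, beside 25.3%, and none was at 0 in every library. Of the 6, Foxj1 has a length of 2623 bp, and Hydin, Dnah5, Dnah6, Dnah11 and Cfap44 have 8405 to 18037 bp. The 8 not called have 556 to 4559 bp, and among them Spag6l and Dynlrb2 had log2 fold changes of -0.58 and -0.41. The part of length in these calls was not tested. The summed level of the 14 markers was 436, 421 and 272 CPM in CCI and 220, 370 and 132 CPM in WT, which overlapped. Foxj1, the factor that directs motile cilium formation, had a log2 fold change of 1.44, the cilium component Cfap44 3.69, and Tmem212 and Rarres2 -0.01 and -0.03 (edgeR adjusted p = 0.0105, 0.000175, 0.989 and 0.966). Choroid plexus markers had 1 of 8 higher and none lower, beside the same shares of all genes. Their sum was 2036 to 2907 CPM in CCI and 289 to 4157 CPM in WT. The part of ependymal cells in the values of the ciliary genes was not tested.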

How the data were processed

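Libraries were made from mRNA selected on poly-T beads, with random-primed cDNA, and run on a NovaSeq instrument, per the labels' protocols. The submitters' processing notes name GRCm39 and the tools HTSeq 0.9.1, HISAT2 2.1.0, StringTie 2.2.1, fastp 0.22.0 and DESeq 1.38.3; the strand setting is not given in the sources used here. Per the file headers, the authors deposited a read count and an FPKM for each gene in each library; the deposited FPKM equalled count over length and column total within 1.3e-07.

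Counts were tested with edgeR 4.0.16 (R 4.3.3; TMM, filterByExpr, quasi-likelihood F-test, Benjamini-Hochberg adjustment, threshold 0.05) over all genes; SE was taken as fold change (log2) over the root of F. Alternatives used DESeq2 1.42.0, limma 3.58.1, mgcv 1.9.3 offsets (GC content from GENCODE M21 by identifier, for 99.9% of genes tested) and each library left out. Python 3.11.15, numpy 2.4.6, pandas 2.3.3, scipy 1.17.1 and matplotlib 3.10.9 were used.

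The members, lists and tests were chosen with earlier results of these data known. Genes named with full values were, per role class, the 3 with the smallest unadjusted p and the 1 with the largest, and per further list the 3 with the smallest. Ift74, Ift81, Ift172 and Mks1 are exceptions, named after their values were seen.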

Additional observations from a re-analysis of the deposited data

How the results depend on the processing

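Of 611 fold changes of the 36 members under the 17 alternatives, 460 kept direction and side of the threshold. With the direction kept, 53 lost a call and 29 gained one. The other 69 changed sign, some of them with a call lost or gained as well. Of 204 for the named genes of the other lists, 172 kept both. Of the rest, 17 lost a call with the direction kept, and 15 changed sign, with or without a change of call. No paired analysis was possible because the CCI libraries carry replicate numbers 1 to 3 and the WT libraries 4 to 6, with none shared. Scales without TMM factors raised the median of all genes by 0.59 (library totals), 0.36 (log2(FPKM + 1)) and 0.59 (log2(FPKM + 0.1)). On these 3 scales, in that order, all genes counted 6477, 6785 and 6632 higher and 1386, 1374 and 1345 lower in CCI. The members counted 19, 19 and 18 higher and 3 lower on each, beside 45.4%, 47.6% and 46.5% of all genes higher and 9.72%, 9.64% and 9.43% lower. Genes of the other 4 cilium lists counted 24, 26 and 26 higher and 6 lower on each. With the offset on length the members were 7 lower, with that on length and GC content 7 lower, and with that on length and mean expression 7 lower, beside 23.8%, 22.8% and 15% of all genes. In the last of these fits 2141 of all genes were lower, and 16 genes of the other lists were called, 8 of them higher. The cause of these changes was not tested beyond the construction of each alternative. Leaving out 1 library gave 2881 to 4560 of all genes higher and 2630 to 4415 lower, 9 to 12 members higher and 7 to 12 lower, and 19 to 31 genes of the other lists (8 to 17 higher, 10 to 14 lower). The low end was without CCI replicate 1 and the high end without WT replicate 5 for all genes; 7 members were lower without CCI replicate 1 and also without CCI replicate 3.

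Signs changed as follows, as log2 fold changes with library totals, log2(FPKM + 1) and log2(FPKM + 0.1) in that order. Ift20 had 0.60, 0.61 and 0.62, Ift52 had 0.00029, 0.048 and 0.054, and Ift81 had 0.46, 0.40 and 0.44. Ift88 had 0.33, 0.34 and 0.40, Ift43 had 0.29, 0.35 and 0.36, and Bbs5 had 0.21, 0.20 and 0.21. Bbs9 had 0.55, 0.44 and 0.54, Bbs10 had 0.27, 0.22 and 0.33, and Tctn1 had 0.48, 0.21 and 0.43. Pde6d had 0.038, 0.035 and 0.035, Unc119 had 0.43, 0.36 and 0.42, and Unc119b had 0.50, 0.43 and 0.58. The offset on length gave 0.33 for Ift20, -0.49 for Ift80, 0.0086 for Ift43, -0.31 for Ift122, -0.23 for Tmem67 and 0.15 for Unc119. The offset on length and GC content gave 0.68 for Ift20, -0.33 for Ift80, 0.039 for Ift81, 0.071 for Ift88, -0.52 for Ift122, 0.28 for Bbs5, 0.30 for Bbs10 and -0.11 for Tmem67; Tctn2 has no GC value and was not in that fit. The offset on length and mean expression gave 0.95 for Ift20, 0.11 for Ift52, -0.63 for Ift80, 0.066 for Ift81, 0.022 for Ift88, 0.43 for Ift43 and -0.27 for Ift122. It also gave 0.25 for Bbs5, 0.087 for Arl6, 0.52 for Arl3, -0.010 for Tctn2, -0.16 for Tmem67, 0.44 for Pde6d and 0.065 for Unc119. Ift80 had -0.024 and Tmem67 -0.037 with DESeq2 size factors, and -0.024 and -0.038 in the DESeq2 Wald test. The stricter filter gave 0.044 for Ift20, 0.048 for Bbs9 and 0.035 for Unc119b, limma-voom gave 0.015 for Ift20, and no filter gave -0.0027 for Tmem67. Leaving out 1 library gave -0.28 to 0.27 for Ift20, -0.11 to 0.14 for Ift80, -0.67 to 0.17 for Ift43, -0.081 to 0.24 for Ift122, -0.50 to 0.014 for Bbs10, -0.20 to 0.034 for Tctn1, -0.10 to 0.12 for Tmem67 and -0.31 to 0.084 for Unc119b.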
